A study of Mus musculus with 6 samples.

Results

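The complement genes examined here were *C1ra*, *C1s*, *C4b*, *C3*, *Cfb*, *C7*, *Serping1*, *Cd55* and *Cd59a*, which fibroblasts are known to express. They were taken by symbol from the deposited expression table, and all 9 were found among its 28987 genes. Complement is a cascade of plasma and tissue proteins. In the classical pathway C1q bound to a surface activates the proteases C1r and C1s, which cleave C4 and C2 to build an enzyme that cleaves C3, and in the alternative pathway factor B builds a further C3-cleaving enzyme on deposited C3. Cleaved C5 then joins C6, C7, C8 and C9 in a pore, and regulators such as C1 inhibitor, CD55 and CD59 stop the cascade on the body's own cells. The liver makes most of the plasma components, whereas fibroblasts, macrophages and other tissue cells make some of them locally.

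EGFP+ cells were sorted from mouse ventricles 4 weeks after transverse aortic constriction (TAC), in which a narrowed aorta overloads the heart with pressure, and were profiled by RNA-seq in 3 libraries labelled control and 3 labelled *Hsp47*-deleted. All of the mice carried a tamoxifen-activated Cre (MerCreMer) knocked into the *Postn* locus and the R26eGFP reporter, and the *Hsp47*-deleted group also carried LoxP-targeted *Hsp47*, so that recombination was limited to cells that switch on *Postn* (activated fibroblasts). Per the labels, mice of both groups underwent TAC at 8 to 10 weeks of age and received tamoxifen at 100 mg/kg i.p. and then in chow at 40 mg/kg, which are not the doses printed in the methods. Control replicates 3 and 4 carry the label of 1 sequencing run (the first run below), and control replicate 2 and *Hsp47*-deleted replicates 1, 2 and 3 carry that of another (the second run). No source says whether mice were pooled for a library, so that p-values measure only the spread between these libraries.

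The authors deposited log2(value + 1), called the log2 value below, without naming the linear unit or the depth. The targeted transcript, listed as *Serpinh1*, had log2 values from 6.10 to 7.60 in the control libraries and from 6.66 to 6.87 in those labelled *Hsp47*-deleted (log2 fold change 0.07, adjusted p = 0.947 in limma, and -0.87 against the second-run control alone), so the groups are called by their labels throughout. *Postn*, whose locus drives the Cre, was at 5.86 to 6.12 in control and 10.22 to 10.50 in *Hsp47*-deleted libraries. The defining genes of fibroblasts were present: 11 of 11 markers, *Postn* among them, passed the filter on low values. Their summed linear level ranged from 8796 to 11932 in control and from 14493 to 16003 in *Hsp47*-deleted libraries. The largest were *Dcn* and *Vim*, with mean linear values of 7106 and 2254. Of the 11, 9 had a higher mean and 2 (*Lum* and *Ddr2*) a lower mean in *Hsp47*-deleted libraries. The groups were without overlap at 5 of the 11, against 19.8% of all tested genes. Across the 15109 genes that passed this filter the median log2 fold change (*Hsp47*-deleted minus control) was 0.35 and not 0, and centring the libraries moved it to -0.06.

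No complement gene passed the test between the labelled groups, although the intervals below leave room for changes of either sign in 8 of the 9. All 9 passed the filter, 0 had a limma p under 0.05 after Benjamini-Hochberg (BH) adjustment over all tested genes (0.245% of all tested genes did), and *C1ra* alone had an unadjusted p under 0.05 (15.2% of all tested genes did). The groups overlapped for each of the 9 genes, whereas they were without overlap at 19.8% of all tested genes. Of the 9 genes, 7 had a higher mean and 2 (*Cfb* and *Cd55*) a lower mean in *Hsp47*-deleted libraries, but the split was 4 higher and 5 lower after centring on the median or quantile normalization, and 3 higher and 6 lower once sequencing run entered the fit as a covariate (adjustment for run below). Control replicate 2 was the only control of the second run. The difference after adjustment for run therefore equals the mean of the *Hsp47*-deleted libraries minus that library alone. The first-run controls enter only its spread. Without a covariate, the median log2 fold change of the 9 genes was 0.21, below the 0.35 of all tested genes. After adjustment for run these medians were -0.04 and 0.29. A bulk library cannot separate fewer cells of a type from less RNA per cell.

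All 9 transcripts were measured in every library, at levels that differed widely over the cascade. The 9 genes made up from 0.128% to 0.248% of the linear sum of a library. *Serping1*, which encodes C1 inhibitor, held from 55.8% to 66.1% of that amount, *C3* from 13.3% to 17.4%, *Cd55* from 6.38% to 14.0% and *C1s* from 4.86% to 8.13%. The remaining genes, *C7*, *C1ra*, *Cd59a*, *C4b* and *Cfb*, each held at most 3.54%. The submitters' processing notes name kallisto, which reports values per length as well as counts, but whether the deposited linear unit is per length is not stated, so this order of genes on the linear scale is a rough one.

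**Figure D1:**
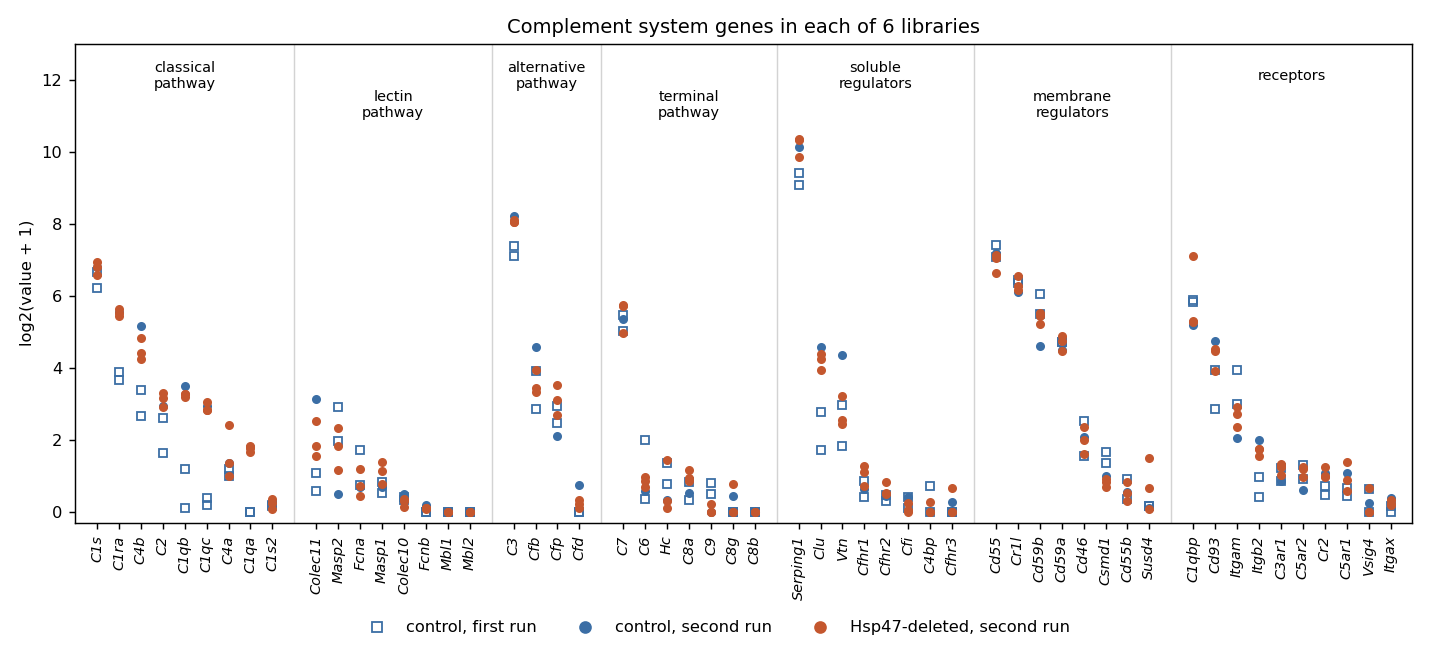
Log2 value (vertical axis) of 54 complement system genes in each of 6 libraries, grouped by role along the horizontal axis and ordered by mean linear value within a role. Open squares are controls of the first run, filled blue points the control of the second run and filled orange points the 3 *Hsp47*-deleted libraries; *Serping1*, *C3* and *Cd55* are near the top, and *C7* stands above the other terminal genes, which reach at most 2.00.

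*C1ra* and *C1s* encode the proteases of the C1 complex. On GRCm38 (GENCODE M21) *C1ra* lies on chromosome 6 from 124512405 to 124523443 on the plus strand (11 exons), and *C1s* (*C1s1* in GENCODE) on the same chromosome from 124530345 to 124542359 on the minus strand (12 exons), with 6901 bases between their facing 3′ ends. *C1ra* had log2 values of 3.89 and 3.67 in the first-run controls (replicates 3 and 4), 5.56 in the second-run control (replicate 2), and 5.63, 5.52 and 5.45 in *Hsp47*-deleted replicates 1 to 3, and the values of each gene below are given in this order. The control of the second run thus sat among the *Hsp47*-deleted libraries, and the controls of the first run sat below all 4 others. Control libraries averaged 4.37 ± 1.03 (SD, n = 3) and *Hsp47*-deleted libraries 5.53 ± 0.088 (SD, n = 3), and the log2 fold change was 1.16 (SE 0.50, 95% interval from 0.0053 to 2.32, adjusted p = 0.326 in limma). After adjustment for run the difference was -0.025 (95% interval from -0.80 to 0.75, adjusted p = 0.990 in limma). The same fit gave a run difference of 1.78 (SE 0.35, adjusted p = 0.0427 in limma). This run difference, here and for the genes below, equals control replicate 2 minus the mean of the first-run controls. A difference between runs and a trait of that library therefore cannot be told apart. *C1ra* was the only 1 of the 9 genes called for run, against 3.94% of all tested genes. The *C1ra* transcript matched that of *C1rb* at 97.9% identity over 81.6% of its length. *C1rb* was sought and is absent from the deposited genes. How reads of the pair were assigned is therefore unknown, and the value of *C1ra* is uncertain.

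*C1s* did not follow this pattern. The control libraries had log2 values of 6.66, 6.22 and 6.81, and the *Hsp47*-deleted libraries 6.95, 6.58 and 6.79. The groups and the runs overlapped, with a log2 fold change of 0.21 (SE 0.29, 95% interval from -0.47 to 0.89, adjusted p = 0.742 in limma) and a run difference of 0.37 (SE 0.37, adjusted p = 0.531 in limma). Within a library, where scaling and gene length cancel from a comparison between libraries (apart from the pseudocount of 1), the log2 value of *C1ra* minus that of *C1s* was -2.76 and -2.55 in the first run and from -1.34 to -1.06 in the second run. This difference separated the libraries of the 2 runs, and the *Hsp47*-deleted libraries did not stand apart from the control of their own run. *C1ra* by itself was higher in every second-run library, as were 35% of all tested genes. No share over other gene pairs was taken, and the value of *C1ra* is uncertain, so no proportion of the 2 proteases is inferred. An antisense gene, *Gm16567*, overlaps *C1s* and is listed at 0 in every library.

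RefSeq promoter windows (GRCm38.p6) were on hand for 6 of the 9 genes, namely *C3*, *C7*, *C1ra*, *C1s*, *Cd55* and *Cd59a*. The 250 bases before each RefSeq start were searched on both strands for the C/EBP core TTGCNNAA (in 9.56% of 32851 windows), the STAT motif TTCNNNGAA (7.02%) and the TATA letters TATAAA (12.4%), since C/EBP and STAT factors are known regulators of inflammatory genes. The RefSeq start of *C1ra* differs from the GENCODE start given above, and 216 bases of its window lie inside the GENCODE gene. The windows with a match are printed to show where in the promoter the letters lie, in the 5′ to 3′ direction of the gene and with the matches in capitals. They were chosen after the values were seen. The windows are chr17:57228137-57228386 (minus strand) for *C3*, chr6:124542360-124542609 (minus strand) for *C1s* and chr15:5063774-5064023 (minus strand) for *C7*.
C3: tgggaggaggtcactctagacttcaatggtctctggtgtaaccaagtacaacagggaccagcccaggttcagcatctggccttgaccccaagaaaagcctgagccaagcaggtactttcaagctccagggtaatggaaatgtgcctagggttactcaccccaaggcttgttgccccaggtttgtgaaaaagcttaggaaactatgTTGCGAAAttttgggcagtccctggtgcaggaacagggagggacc
C1s: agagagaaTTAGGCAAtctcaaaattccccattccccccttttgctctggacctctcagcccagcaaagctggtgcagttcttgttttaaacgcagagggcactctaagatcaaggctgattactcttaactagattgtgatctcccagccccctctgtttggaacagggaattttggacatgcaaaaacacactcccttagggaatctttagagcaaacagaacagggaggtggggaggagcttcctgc
C7: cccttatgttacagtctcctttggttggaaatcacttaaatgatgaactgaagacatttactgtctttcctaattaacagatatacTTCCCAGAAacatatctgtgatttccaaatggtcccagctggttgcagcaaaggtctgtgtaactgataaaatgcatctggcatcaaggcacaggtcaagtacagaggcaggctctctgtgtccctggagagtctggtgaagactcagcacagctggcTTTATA
In *C3* the letters TTGCGAAA matched the C/EBP core from -45 to -38 relative to the start. In *C1s* the letters TTAGGCAA matched it on the reverse strand from -242 to -235. In *C7* the letters TTCCCAGAA matched the STAT motif from -164 to -156, and TTTATA, the reverse strand of TATAAA, ran from -6 to -1; the RefSeq start of *C7* lies 33 bases upstream of its GENCODE start. None of the 3 motifs was found in the windows of *C1ra*, *Cd55* and *Cd59a*, nor in a further window for *C1s* that starts downstream of the printed one. A match describes the letters and is no evidence of binding.

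*C4b* encodes C4, the substrate of C1s, and lies on chromosome 17 from 34728380 to 34743882 on the minus strand (41 exons). First-run controls had *C4b* at 3.38 and 2.67 on the log2 scale, the second-run control at 5.16, and *Hsp47*-deleted libraries at 4.42, 4.25 and 4.82. The highest library was the control of the second run, and the lowest were the controls of the first run. With means of 3.74 ± 1.28 in control and 4.50 ± 0.29 in *Hsp47*-deleted libraries (SD, n = 3 each), the log2 fold change was 0.76 (SE 0.60, 95% interval from -0.64 to 2.16, adjusted p = 0.546 in limma). The difference from the control of the second run was of the opposite sign, -0.67, and the run difference was 2.14 (SE 0.46, adjusted p = 0.0520 in limma). The near-identical *C4a* (95.95% identity over 99.98% of the *C4b* transcript) had log2 values from 1.01 to 2.43, so that *C4b* was 1.47 to 3.81 higher than *C4a* within a library, with the division of reads between them uncertain.

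*C3*, the component on which all of the activation pathways meet, lies on chromosome 17 from 57203970 to 57228136 on the minus strand (41 exons). On the log2 scale *C3* was at 7.39, 7.10 and 8.23 in the controls and at 8.05, 8.11 and 8.06 in the *Hsp47*-deleted libraries. The *Hsp47*-deleted libraries lay within 0.06 of each other and below the control of their own run. The log2 fold change was 0.50 (SE 0.35, 95% interval from -0.32 to 1.32, adjusted p = 0.496 in limma), and -0.15 after adjustment for run (95% interval from -0.85 to 0.55). The run difference of 0.98 (SE 0.32) did not pass adjustment (adjusted p = 0.117 in limma).

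*Cfb* encodes factor B, the protease zymogen of the alternative pathway, and lies on chromosome 17 from 34856374 to 34862518 on the minus strand (18 exons). Log2 values of *Cfb* in the controls were 3.90, 2.87 and 4.58, while those of the *Hsp47*-deleted libraries were 3.44, 3.34 and 3.94. All of the *Hsp47*-deleted libraries fell between the lowest and the highest control. The log2 fold change was -0.21 (SE 0.47, 95% interval from -1.29 to 0.87, adjusted p = 0.842 in limma) and, after adjustment for run, -1.01 (SE 0.50, 95% interval from -2.19 to 0.17, adjusted p = 0.732 in limma). *C3* exceeded *Cfb* within a library by 3.49 to 4.23 in control and by 4.12 to 4.77 in *Hsp47*-deleted libraries, and these ranges overlapped. A read-through gene, *Gm20547*, shares 81.7% of the *Cfb* transcript and is listed at 0 in every library.

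*C7* encodes a component of the membrane attack complex and lies on chromosome 15 from 4988762 to 5063740 on the minus strand (18 exons). The control libraries had log2 values of 5.47, 5.03 and 5.36, and the *Hsp47*-deleted libraries 5.73, 5.76 and 4.96. *Hsp47*-deleted replicate 3 was the lowest of the 6 libraries and the other two of that group were the highest, so neither label nor run ordered them. The log2 fold change was 0.20 (SE 0.33, 95% interval from -0.57 to 0.96, adjusted p = 0.788 in limma). Other genes of the terminal pathway were close to the bottom of the scale: *Hc* (C5), *C6*, *C8a*, *C8b*, *C8g* and *C9* together summed to a linear value of 1.54 to 5.24, against a mean of 41.8 for *C7* alone.

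*Serping1* encodes C1 inhibitor, which inactivates C1r and C1s, and lies on chromosome 2 from 84765387 to 84775444 on the minus strand (8 exons). First-run controls had *Serping1* at 9.42 and 9.09 on the log2 scale, the second-run control at 10.15, and *Hsp47*-deleted libraries at 10.36, 10.33 and 9.85. The controls of the first run were again the lowest libraries, and the control of the second run lay within the *Hsp47*-deleted range. The log2 fold change was 0.63 (SE 0.38, 95% interval from -0.25 to 1.5, adjusted p = 0.436 in limma), and 0.035 after adjustment for run (95% interval from -0.75 to 0.82). Relative to its target, *Serping1* exceeded *C1ra* by 5.53 and 5.42 in the first run and by 4.40 to 4.80 in the second run, and exceeded *C1s* by 2.77 and 2.87 in the first run and by 3.06 to 3.75 in the second run. The transcript of the inhibitor was thus above those of both target proteases in each library. Its margin over *C1ra* was smaller, and that over *C1s* larger, in the second run. *Serping1* and *C1ra* were each higher in every second-run library, as were 35% of all tested genes. No share over other gene pairs was taken, and the value of *C1ra* is uncertain. No proportion of inhibitor to proteases is therefore inferred.

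*Cd55* encodes decay-accelerating factor, a membrane protein that dissociates C3-cleaving enzymes, and lies on chromosome 1 from 130439027 to 130462744 on the minus strand (10 exons). On the log2 scale *Cd55* was at 7.42, 7.09 and 7.18 in the controls and at 7.04, 7.13 and 6.63 in the *Hsp47*-deleted libraries. Only *Hsp47*-deleted replicate 2 reached into the control range. The log2 fold change was -0.30 (SE 0.29, 95% interval from -0.96 to 0.37, adjusted p = 0.629 in limma), and -0.24 after adjustment for run. *Cd55b* (listed as *Daf2*), which matched 44.5% of the *Cd55* transcript at 91.9% identity, was at log2 values of 0.31 to 0.92 and below the filter.

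*Cd59a* encodes a membrane protein that blocks assembly of the membrane attack complex, and lies on chromosome 2 from 104095801 to 104115354 on the plus strand (5 exons). Log2 values of *Cd59a* in the controls were 4.71, 4.73 and 4.50, while those of the *Hsp47*-deleted libraries were 4.73, 4.88 and 4.46. The spread over all 6 libraries was the smallest of the 9 genes, and the log2 fold change was 0.05 (SE 0.28, 95% interval from -0.59 to 0.69, adjusted p = 0.948 in limma). Its paralog *Cd59b* (83.2% identity over 39.1% of the transcript) was at 4.61 to 6.05 and exceeded *Cd59a* in each library, by 0.11 to 1.32.

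**Figure D2:**
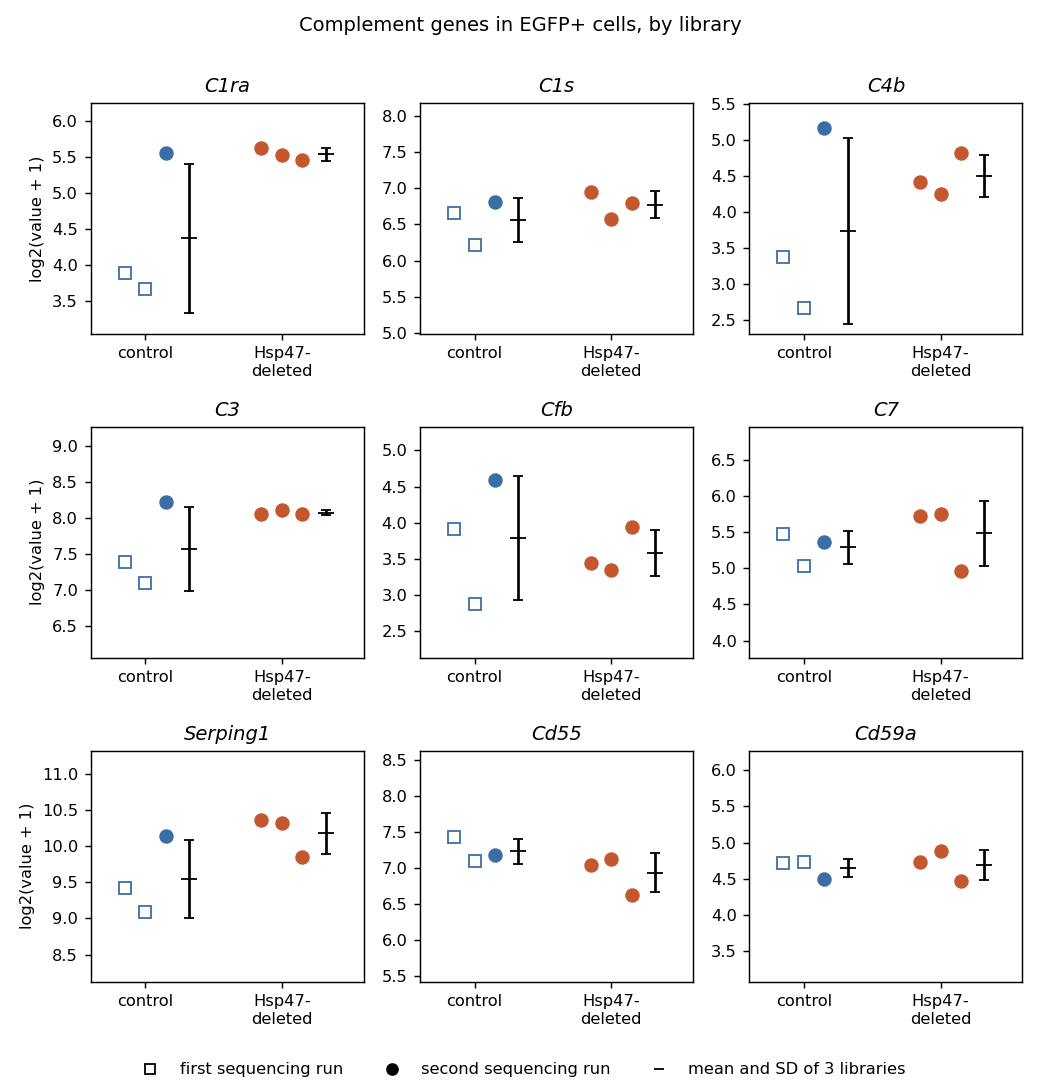
Log2 value (vertical axis, the same span of 3.2 in each panel but a different origin) of 9 complement genes by labelled group (horizontal axis). Squares are first-run and filled points second-run libraries, and bars are the mean and SD of 3 libraries; in *C1ra*, *C4b*, *C3* and *Serping1* both squares lie below every filled point, while in *C7*, *Cd55* and *Cd59a* they do not.

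**Figure D3:**
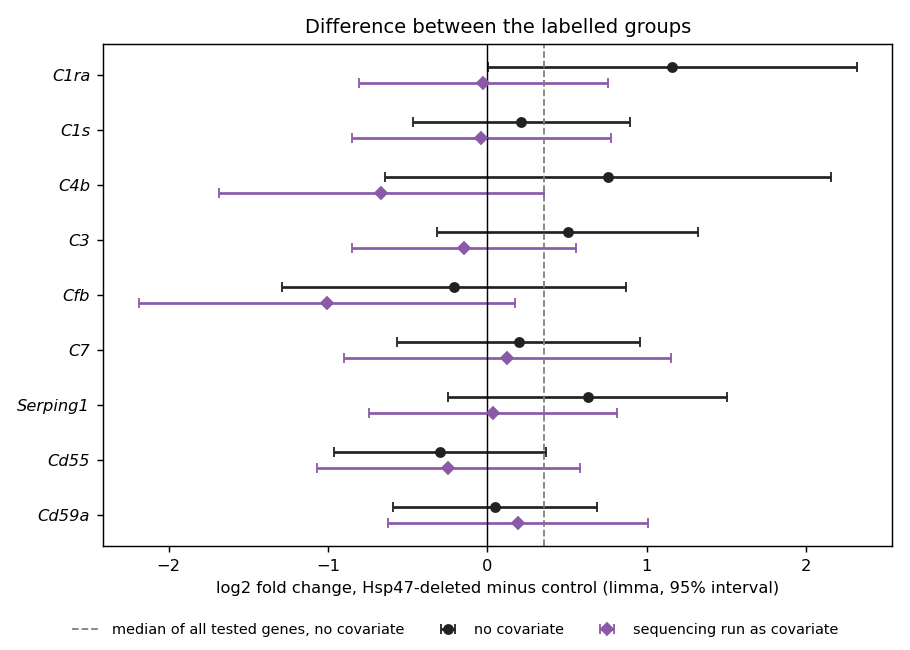
Log2 fold change (*Hsp47*-deleted minus control, horizontal axis) with its 95% interval from limma for each of 9 complement genes, without a covariate (black circles) and after adjustment for run (purple diamonds); the dashed line is the median of all tested genes without a covariate, 0.35. Without a covariate only the interval of *C1ra* stops short of 0, at 0.0053, and with the covariate it runs from -0.80 to 0.75.

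In 4 of the 9 genes, *C1ra*, *C4b*, *C3* and *Serping1*, all 4 libraries of the second run were above both libraries of the first run. The same order held at 35% of all tested genes, so the share of 4 in 9 is near the background and is no result about complement. After adjustment for run 0 of the 9 genes differed between the labelled groups at a BH-adjusted limma p under 0.05, against 0.331% of all tested genes, and the smallest unadjusted p was that of *Cfb*. When control replicate 2 was left out, label and run coincided, and *C1ra* (log2 fold change 1.75, adjusted p = 0.00815 in limma) and *C4b* (1.47, adjusted p = 0.0298 in limma) were called together with 18.3% of all tested genes. In that comparison run and label cannot be told apart.

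Markers of several other cell types were also higher in the libraries of the second run. The summed linear level of 14 macrophage and leukocyte markers was 39.1 and 71.5 in the first run and from 186 to 460 in the second run. In the second-run control *S100a8* and *S100a9* held 165 and 167 of the 460. Of the 11 that passed the filter, 10 were above the first run in every library of the second run, against 35% of all tested genes. The exception was *Cd68*, with log2 values of 4.72 and 6.01 in the first run, 4.33 in the second-run control and 5.73 to 5.98 in *Hsp47*-deleted libraries. *Ptprc*, which defines leukocytes, is listed at 0 in all 6 libraries. The sum of 10 endothelial markers was 102 and 166 in the first run and 184 to 296 in the second. That of 11 cardiomyocyte markers was 53.2 and 101 against 183 to 299, and that of 6 erythroid markers 20.4 and 113 against 218 to 857. Every second-run library was above both of the first run at 8 of 10 tested endothelial and 7 of 10 tested cardiomyocyte markers. The same order held at 4 of 5 tested erythroid markers and 1 of 7 mural markers (*Pdgfrb*). Exceptions were *Tek* and *Vwf* among endothelial, *Myh7*, *Actc1* and *Nppa* among cardiomyocyte and *Hba-a1* among erythroid markers. Mural markers overlapped between the runs (178 to 307 and 162 to 266), as did mesothelial markers (1.37 to 6.17 and 3.61 to 11.2), while Schwann cell markers were low but separated by run, at 4.33 and 4.77 against 6.86 to 7.24. The fibroblast markers followed the same order, with 8796 and 9339 in the first run and 11932 to 16003 in the second run. The part of any of these cells in the values of *C1ra*, *C4b*, *C3* and *Serping1* was not tested.

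The complement system as a whole was read from lists by role, which include the 9 genes. Of 55 listed genes 54 were found, 30 passed the filter and 24 did not, and 0 were called, with 22 of the 30 higher and 8 lower in *Hsp47*-deleted libraries as deposited, 12 and 18 after centring or quantile normalization, and 14 and 16 after adjustment for run. Without the 9 genes, 21 of the 45 found were tested, of which 15 were higher and 6 lower as deposited, and 8 higher and 13 lower after centring or quantile normalization. Besides *C1ra*, 1 gene had an unadjusted p under 0.05, *C1qc*. In the classical pathway 8 of 8 tested genes had a higher mean (6 of 8 after centring or quantile normalization, 2 of 8 after adjustment for run). The median of their log2 fold changes was 0.96, or -0.04 when taken against the second-run control alone. The same medians over all tested genes were 0.35 and 0.29. The C1q chains *C1qa*, *C1qb* and *C1qc*, which macrophages are known to make, had a summed linear value of 0.231 and 1.57 in the first run and 16.3 to 19.6 in the second run. Their log2 fold changes were 1.16 for *C1qa* (adjusted p = 0.339 in limma), 1.64 for *C1qb* (adjusted p = 0.348 in limma) and 1.73 for *C1qc* (adjusted p = 0.317 in limma), and *C1qb* (2.85, adjusted p = 0.0352 in limma) and *C1qc* (2.67, adjusted p = 0.0213 in limma) were called for run along with *C1ra*. In all, 3 of the 30 tested complement system genes were called for run, against 3.94% of all tested genes. No result about complement is read from so few genes. The summed C1q chains of the control of the second run, 19.6, were above those of all 3 *Hsp47*-deleted libraries.

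Lectin pathway genes and the remaining alternative pathway genes had low values. The 8 lectin pathway genes summed to a linear value of 6.13 to 9.98, with *Mbl1* and *Mbl2*, which encode mannose-binding lectins, listed at 0 in all 6 libraries. In the alternative pathway *Cfd* (factor D) had log2 values of at most 0.74, below the filter, and *Cfp* (properdin) ran from 2.12 to 3.53. Values of 3 further soluble regulators follow. *Cfi*, which encodes the protease factor I that degrades cleaved C3 and C4, was at most 0.41 on the log2 scale. *Clu* (clusterin) had a log2 fold change of 1.17 (adjusted p = 0.413 in limma) that was -0.39 after adjustment for run, and *Vtn* (vitronectin) one of -0.33 (adjusted p = 0.809 in limma) that was -1.64 after adjustment for run (adjusted p = 0.650 in limma).

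Among the membrane regulators 3 of 6 tested genes had a higher mean and 3 a lower mean, but all 6 were lower after centring or quantile normalization. *Cr1l*, the rodent membrane inhibitor of C3 cleavage known as Crry, ran from 6.12 to 6.56 (log2 fold change 0.04, adjusted p = 0.956 in limma, and -0.38 after centring), and *Cd55* exceeded it within a library by 0.74 to 1.06 in control and by 0.45 to 0.84 in *Hsp47*-deleted libraries. *Csmd1* was the only 1 of the 30 tested complement genes whose groups did not overlap (19.8% of all tested genes did not), from 0.98 to 1.65 in control and from 0.68 to 0.91 in *Hsp47*-deleted libraries (log2 fold change -0.52, adjusted p = 0.463 in limma, and -0.17 after adjustment for run). The 4 libraries of the second run, its control included, were also below both of the first run. Of the receptors 5 of 6 tested genes had a higher mean as deposited, against 2 of 6 after centring or quantile normalization and 4 of 6 after adjustment for run. The exception was *Itgam* (log2 fold change -0.33, adjusted p = 0.759 in limma, and 0.62 after adjustment for run), which was lower in every library of the second run than in both of the first. The anaphylatoxin receptors *C3ar1*, *C5ar1* and *C5ar2* stayed at or below 1.38.

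Linear values were also summed by role within each library. *C3*, *C4b* and *Cfb* together came to a linear value of 148 to 356, and *Serping1*, *Cd55* and *Cd59a* to 703 to 1470. A balance of activation and regulation cannot be read from these sums, since the linear unit is not named. *C1ra* and *C1s*, the targets of C1 inhibitor, were in neither sum. The regulators *Cr1l* and *Cd59b*, with mean linear values of 79.4 and 42.7 over all libraries, were also left out.

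**Figure D4:**
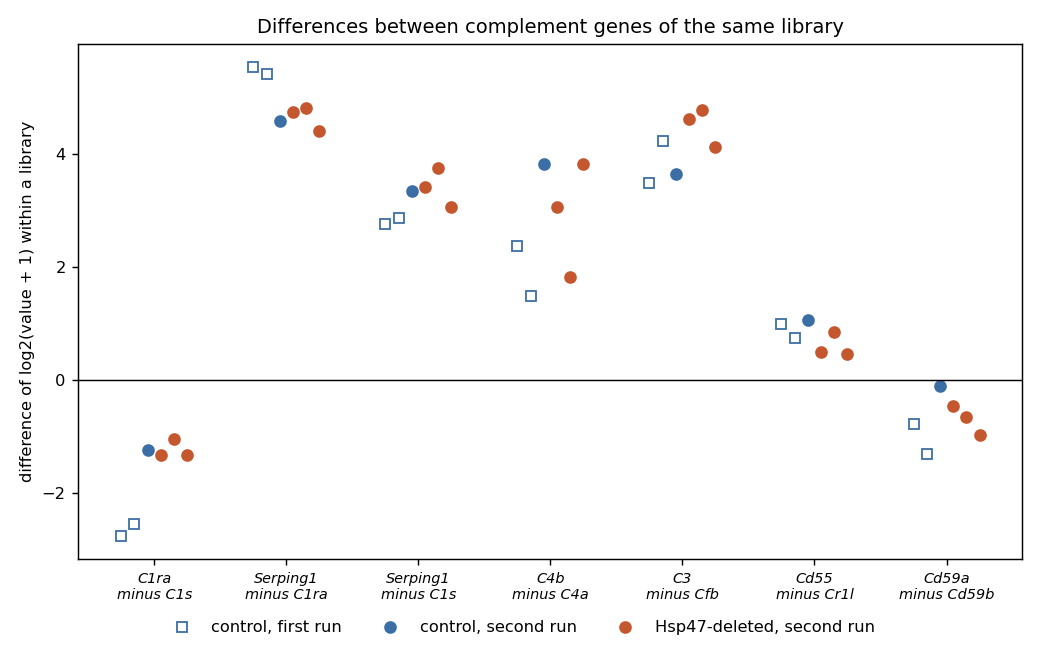
Difference of the log2 values of 2 complement genes of the same library (vertical axis) for 7 pairs (horizontal axis), with first-run controls as open squares, the second-run control in filled blue and *Hsp47*-deleted libraries in filled orange. *C1ra* minus *C1s* was -2.76 and -2.55 in the first run and -1.34 to -1.06 in the second run, and the *Hsp47*-deleted libraries lie around the second-run control in this pair.

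The genes closest in pattern to each complement gene were sought among 6477 tested genes with a mean linear value of at least 10, by Pearson r of the log2 values over the 6 libraries. These r are descriptions: the 6 libraries share 2 runs, which hold too few libraries (2 and 4) for an r within a run. For *C1ra* they were *Cox6b1* and *Mvp* (r = 0.998 for each), for *Serping1* *Commd6* (0.999) and *Ppp1r18* (0.998), for *C3* *Dhrs7* (0.997), and for *C4b* *Znrd1* (0.990) and *Rplp0* (0.988). Many genes shared these patterns: r exceeded 0.9 for 1140 candidates with *C1ra*, 1134 with *Serping1*, 837 with *C3* and 228 with *C4b*. The other 5 complement genes had few genes of like pattern. The counts of candidates over 0.9 were 54 for *C7* (closest *Fmo1*, 0.983, and *Mapkap1*, 0.982), 29 for *Cd59a* (*Grasp*, 0.988, and *Prex2*, 0.978), 19 for *C1s* (*Rgs10*, 0.970, and *Rwdd1*, 0.950), 18 for *Cd55* (*Myadm*, 0.966, and *Klf3*, 0.962) and 4 for *Cfb* (*Antxr2*, 0.935, and *Lin37*, 0.931).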

How the data were processed

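RNA-seq of 6 libraries was read from 1 table in which the authors deposited log2(value + 1) per gene and library, after RNA amplification. Per the labels, kallisto and mm10 were used in processing, and the paper names AltAnalyze. The linear unit is not named and depth is unknown, so no count model was used. The authors' group means, folds and p-values in the same table were not used. Genes with a mean linear value of at least 1 (15109 of 28987) entered limma 3.58.1 (R 4.3.3; lmFit, eBayes with trend, two-sided, Benjamini-Hochberg), without a covariate. The smallest two-sided p of an exact permutation test is 0.10 at this group size. The fit was also run on simulated data with independent genes and no difference between runs, which could not check the effect of run. The complement genes, the lists by role, the marker lists and the motifs were written by hand with earlier results of these data known. Named genes were *Serpinh1*, the 9 complement genes, their paralogs, the 4 listed genes with the smallest p in each direction, and the 2 genes closest in r (some genes are not reported here); others, such as *Cfd*, *Cfi* and *Ptprc*, were named after values were seen. 5 listed genes were matched by Ensembl identifier, since the table holds older symbols. Copies were found by aligning GENCODE M21 transcripts with minimap2 2.31-r1302. Alternatives were sequencing run as a covariate, the second run alone, the replicate number as a block, other filters (none, 5) and pseudocounts (0.1, 5), centring, quantile normalization, other variance models (statmod 1.5.0) and leaving out each library. Run differences, within-library differences and limma on the second run alone were added after the data were seen.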

Additional observations from a re-analysis of the deposited data

How the results depend on the processing

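None of the 9 complement genes, nor of the 30 tested complement system genes, was called under any alternative but the omission of control replicate 2. Without that library 2 of the 9 and 6 of the 30 were called, against 18.3% of all tested genes. *Cd55* was lower and *Serping1* higher in all 18 alternatives (-0.71 to -0.14 and 0.03 to 0.93). These are not 18 separate checks. The filters and variance models could not move a log2 fold change, and the run covariate and the second run alone gave the same estimate. The median log2 fold change of 0.21 became -0.038 with sequencing run as a covariate, and was the same with the second run alone, with or without limma. The median of all tested genes was 0.35 without a covariate and 0.29 with the run covariate. For the 9 genes the median was -0.20 with centring (-0.06 for all tested genes) and -0.12 with quantile normalization (-0.05 for all tested genes). It was 0.086 to 0.46 when 1 library was left out. With the run covariate, and in the second run alone with limma, the sign turned for *C3* (-0.15), *C4b* (-0.67), *C1ra* (-0.025) and *C1s* (-0.038). With centring it turned for *C7* (-0.22), *C1s* (-0.20) and *Cd59a* (-0.37), and with quantile normalization for *C7* (-0.12), *C1s* (-0.15) and *Cd59a* (-0.29). Without control replicate 2 it turned for *Cfb* (0.19) and *Cd59a* (-0.027); the values of *Cd59a* ran from -0.047 (without *Hsp47*-deleted replicate 2) to 0.16 over the omissions of 1 library. Control replicates 2 and 3 share a number with *Hsp47*-deleted replicates, and deviations from the group means correlated at 0.156 and 0.228, but no label ties the numbers to a shared animal or day. With the replicate block 0 of all tested genes were called, and *C7* (-0.057) and *C1s* (-0.049) turned. Over all genes 37 were called, against 16 with a pseudocount of 0.1, 18 with centring, 17 with quantile normalization, and from 8 to 2768 (the latter without control replicate 2) when 1 library was left out. The cause of these changes was not tested. Depth is unknown, and values near 0 could not be ranked.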
